A study of Mus musculus with 28 samples.

Results

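The genes described here are the nuclear-encoded subunits of the mitochondrial oxidative phosphorylation complexes. The rule takes them by symbol: the Nduf genes of the a, b, c, s and v series, the Sdh genes a to d, all Uqcr genes and Cyc1, the Cox genes numbered 4 to 8, and all Atp5 genes, leaving out pseudogene symbols. This gave 87 of the 25124 genes in the table. By symbol, 39 belonged to complex I, 4 to complex II, 9 to complex III, 18 to complex IV and 17 to complex V. Ndufa4 was counted under complex I by its name, although its product is known as a subunit of complex IV. Ndufab1 and Atpif1, a complex I acyl carrier protein and an inhibitor of ATP synthase, fell outside the symbols and are given with the related genes. The table held 0 genes of the mitochondrial genome, so the subunits encoded there were not analysed here.

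Oxidative phosphorylation couples the oxidation of fuel to the making of ATP at the inner mitochondrial membrane. Complex I takes electrons from NADH, complex II takes them from succinate, complex III passes them to cytochrome c, and complex IV hands them to oxygen. The protons that complexes I, III and IV move across the membrane flow back through complex V, the ATP synthase. Resting T cells make most of their ATP this way, and T cells engaged through the receptor are known to enlarge their mitochondrial content as well as to raise glycolysis.

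RNA was sequenced from sorted CD4+ T cells of the small intestinal lamina propria of T-bet-ZsGreen mice, whose reporter marks expression of the transcription factor T-bet. The sort took live cells positive for CD45, CD90.2, TCRb and CD4, without a gate on ZsGreen in the labels, so each library mixes all CD4+ subsets. Mice were housed specific-pathogen-free (SPF), so that they carried microbes, or were raised germ-free (GF). Each had received aCD3, an antibody against the CD3 part of the T cell receptor, or an isotype control antibody. The groups were SPF isotype with 6 libraries (3 female, 3 male), SPF aCD3 with 6 (3 female, 3 male), GF isotype with 10 (5 female, 5 male) and GF aCD3 with 6 (1 female, 5 male). Libraries carry a sex letter and a number, as in F1 or M3. The column names also hold sample numbers, 1 to 6 in SPF isotype, 7 to 12 in SPF aCD3, and 25 to 33 and 48 to 54 in GF. The labels name no batch. A batch that followed these numbers could not be told apart from aCD3 within SPF, or from colonisation. Age, dose and sampling time were not used here. The labels do not say whether each library came from its own animal, so the p-values measure the spread between these libraries, which may in part be technical.

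Depth ran from 6765529 to 17860609 reads in genes per library. The GF aCD3 libraries stood apart from each other. Histone genes took 5.39% of all TPM in F1, 23.4% in M1, 23.1% in M2, 7.46% in M3, 6.43% in M4 and 25.97% in M5, against 3.79% to 9.24% in GF isotype and 23.8% to 26.8% in SPF aCD3. Lag3, an inhibitory receptor known to rise on activated T cells, lay in the same order at 8.45, 561, 508, 13.8, 10.6 and 637 scaled TPM, TPM set to a common scale by a median of ratios, against 4.56 to 16.4 in GF isotype and 634 to 1007 in SPF aCD3. The libraries F1, M3 and M4 thus read like isotype libraries in both measures, against their label. The 6 libraries were kept in their labelled group throughout, and the counts of called members that rest on them are also given with each one left out.

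Promoter sequence was matched for 66 of the 87 genes, from RefSeq on GRCm38.p6. Of these, 10 (15.2%) held the letters GCGCATGC, an 8-letter form of the binding motif of NRF1, on either strand of the 300-base window around the start, against 5.73% of the 8950 tested genes with a window. The ETS core CCGGAAG was in 25.8% of the 66 and 20.3% of the 8950. The SP1 box GGGCGG was in 37.9% and 62.9%, CCAAT in 43.9% and 39.0%, the E-box CACGTG in 7.58% and 10.3%, and TATAAA in 12.1% and 7.43%. For YY1, the letters ATGGCGGC were in 9.09% and 5.47%, and a longer form that contains them in 6.06%, or 4 of the 66, and 1.89%. In the SPF comparison below, the median log2 fold change was 0.78 with the NRF1 letters and 0.60 without, and 0.30 with the longer YY1 form and 0.64 without, given with no test. These letter matches are a description of the windows and do not show binding. The 120 bases before the start are shown for 5 genes on which the results below turn, 5′ to 3′ on the gene's strand, with the NRF1 or ETS letters in capitals where either occurs in these bases. In Atp5k the 2 NRF1 matches, 1 on each strand, overlap. The 300-base windows hold further matches outside the printed bases: the ETS letters in Atp5k, Sdhb and Atp5md, and the NRF1 letters in Uqcr11.
Atp5k, chr5:108434400-108434519, minus strand: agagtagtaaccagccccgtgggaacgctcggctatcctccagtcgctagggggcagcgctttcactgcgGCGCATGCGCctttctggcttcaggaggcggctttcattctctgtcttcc
Sdhb, chr4:140961151-140961270, plus strand: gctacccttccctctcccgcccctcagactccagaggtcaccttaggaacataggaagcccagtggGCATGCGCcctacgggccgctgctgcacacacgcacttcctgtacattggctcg
Uqcr11, chr10:80406822-80406941, minus strand: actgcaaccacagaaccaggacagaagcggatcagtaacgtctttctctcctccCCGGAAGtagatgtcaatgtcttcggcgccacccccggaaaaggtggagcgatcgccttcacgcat
Cox5b, chr1:36691367-36691486, plus strand: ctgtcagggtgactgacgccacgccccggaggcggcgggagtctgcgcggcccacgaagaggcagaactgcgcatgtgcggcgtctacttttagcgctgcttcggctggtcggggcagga
Atp5md, chr19:47090648-47090767, minus strand: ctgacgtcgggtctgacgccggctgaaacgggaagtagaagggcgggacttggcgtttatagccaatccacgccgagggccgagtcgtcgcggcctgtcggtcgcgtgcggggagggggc
Atp5k, Sdhb, Uqcr11 and Cox5b are among the members that rose below, and Atp5md is the member that fell furthest.

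The first question was how the subunit transcripts of SPF mice differed after aCD3. Most were higher, in all 5 complexes, and 4 were lower. Of the 82 members that passed the filter of at least 1 TPM in at least 6 libraries, 62 (75.6%) were higher, 4 (4.88%) were lower and 16 passed in neither direction (limma on log2(scaled TPM + 1), Benjamini-Hochberg adjusted p under 0.05). Over all 12182 genes tested in the same fit, 30.2% were higher and 29.8% were lower, 60.0% in either direction. The median log2 fold change was 0.61 over the 82 members and -0.01 over all genes. In 43 members every aCD3 library lay above every isotype library, and in 2 every one lay below, against 20.2% and 19.4% of all genes. Subunit genes are mostly well expressed, and high genes rose more often: among genes with a mean of at least 20 scaled TPM, 48 of 56 members (85.7%) were higher against 42.3% of all genes of that level.

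**Figure D1:**
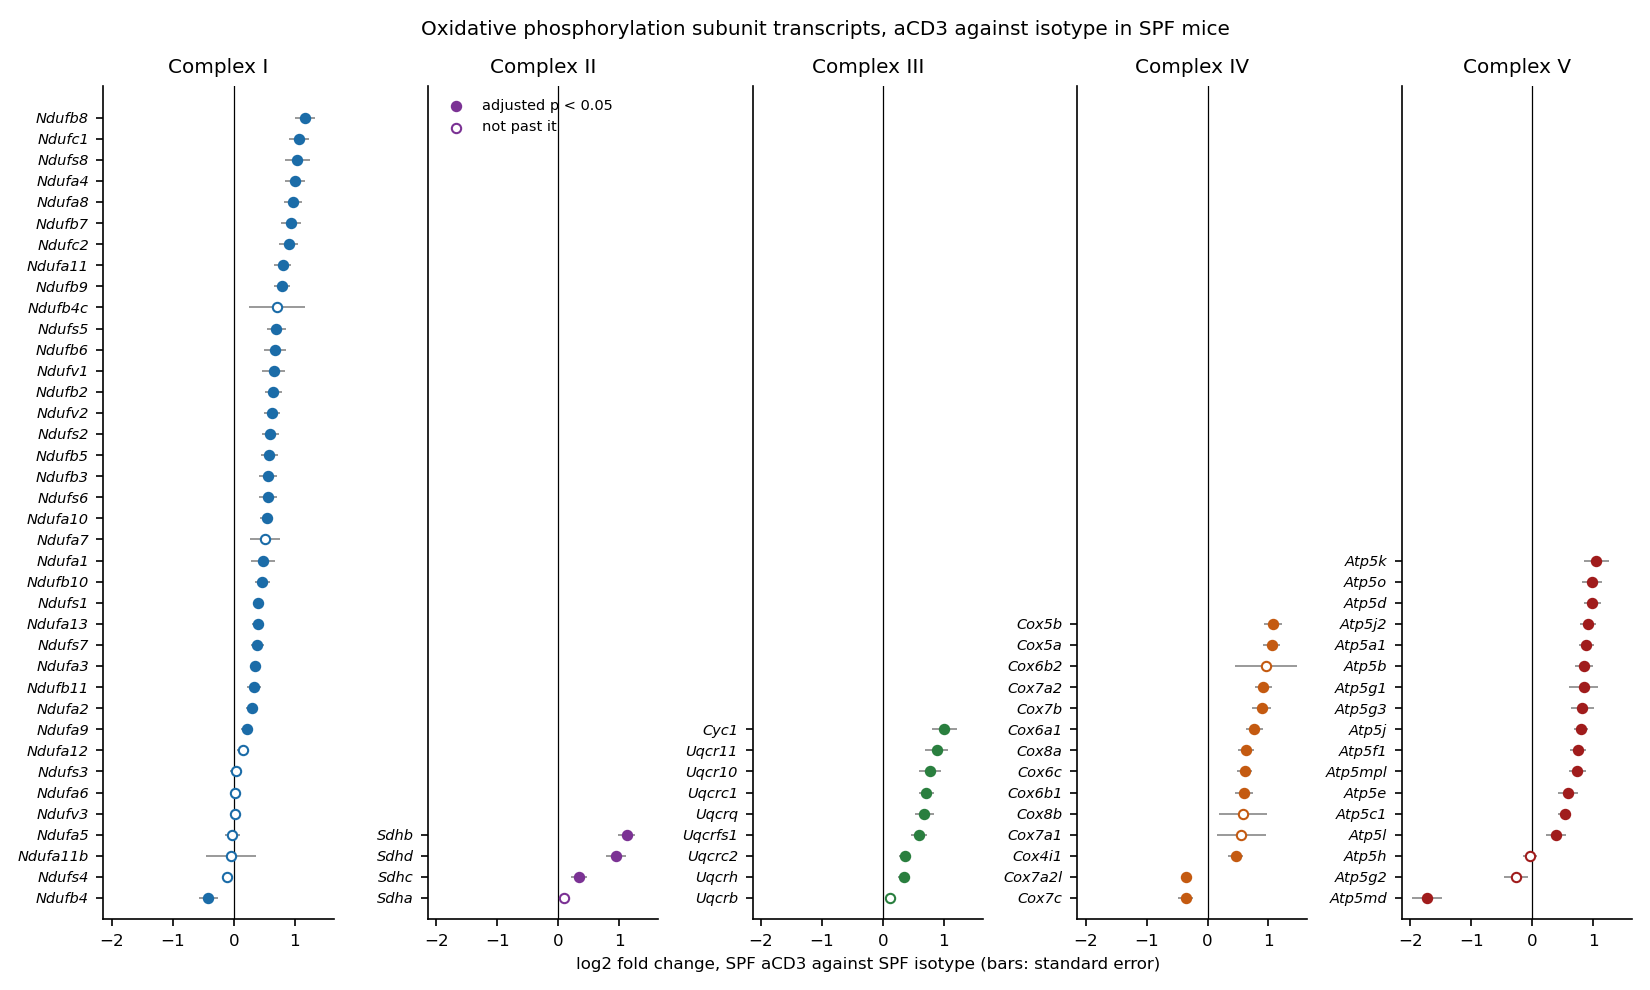
Log2 fold change, with its standard error as a bar, of each of the 82 tested subunit genes in SPF aCD3 against SPF isotype libraries, by complex. Filled points passed a limma adjusted p of 0.05 (62 higher, 4 lower) and open points did not (16). Atp5md at -1.72 stands apart from the other members, which ran from -0.42 to 1.17.

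These counts depend on how libraries are set to a common scale. TPM is a share of a library's total, so a larger share for some genes leaves less for the others. Histone genes took 23.8% to 26.8% in SPF aCD3 and 4.05% to 7.04% in SPF isotype. On the deposited scale the median of all genes was -0.35 and the members' median 0.23, with 35 members higher and 13 lower, against 14.2% and 50.7% of all genes. All 35 were among the 62, and the 4 lower members were lower on both scales. The other 27 of the 62 were not called on the deposited scale, while 9 members that had not passed, Sdha among them, were called lower. With Rn45s, the ribosomal RNA precursor, and histone genes removed, the median of all genes was -0.15 and the members' median 0.50. On that scale 56 members were higher and 4 lower, against 22.9% and 35.9% of all genes. The part of the histone share in the shift between scales was not tested. Which scale is closer to the RNA content per cell was not tested either. In bulk RNA, fewer cells of a type and less RNA per cell cannot be told apart.

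In complex I, 28 of 38 tested members rose and 1 fell, with a median log2 fold change of 0.55. Ndufb8, an accessory subunit of the membrane arm (NM_026061, mm10 chr19:44550240-44555442), rose the most. Its scaled TPM had a low of 35.1, a median of 39.3 and a high of 46.9 in SPF isotype, and 73.7, 87.6 and 108 in SPF aCD3. The groups did not overlap, and the log2 change came to 1.17 (SE 0.16, limma adjusted p = 2.71e-06). Ndufc1, also of the membrane arm, went from 23.3 ± 3.91 to 49.8 ± 5.60 scaled TPM (SD, n = 6 each), a log2 fold change of 1.07. Of the 7 core subunits encoded in the nucleus, among them those that carry the flavin and the iron-sulfur clusters, 6 rose. Ndufs1, the largest of them, rose by a log2 of 0.40 (SE 0.08) and Ndufv1, which holds the flavin, by 0.65 (SE 0.19). The core subunit that did not pass was Ndufs3, at 16.7 ± 1.49 and 17.4 ± 3.00 scaled TPM. Ndufb4 was the member that fell, from 5.90 ± 1.84 to 4.10 ± 0.947 scaled TPM, -0.42 as a log2 fold change (limma adjusted p = 0.0301). The Ndufb4 groups overlapped, and the call was lost without SPF isotype M2 or M3 or without SPF aCD3 F2, M2 or M3, with adjusted p up to 0.0963 and a log2 fold change between -0.50 and -0.32.

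Complex II, succinate dehydrogenase, has 4 subunits and is shared with the TCA cycle; 3 rose. Sdhb, the iron-sulfur subunit, had a low of 12.3, a median of 13.5 and a high of 17.96 scaled TPM in SPF isotype and 29.3, 32.2 and 34.5 in SPF aCD3. Every aCD3 library lay above every isotype library, and the log2 change came to 1.12 (SE 0.14, limma adjusted p = 1.51e-06). Sdhd, a membrane anchor, rose by 0.94. Sdhc, the other anchor, rose by 0.34, a call that was lost without SPF isotype M3 or without SPF aCD3 F2, F3 or M3 (adjusted p up to 0.0637). Sdha is the flavoprotein that oxidizes succinate. It had 32.1 to 35.4 scaled TPM in SPF isotype and 34.3 to 39.6 in SPF aCD3, with overlap. The fold change was 0.09 on the log2 scale (SE 0.06, limma adjusted p = 0.211), while on the deposited scale it fell by 0.31 (limma adjusted p = 0.000772). The Sdhb value was 0.72 on the deposited scale.

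In complex III, which passes electrons from ubiquinol to cytochrome c, 8 of 9 members rose, with a median of 0.68. Cyc1, cytochrome c1 (NM_025567, mm10 chr15:76343523-76346259), showed the largest rise, from 33.2 ± 14.3 to 63.4 ± 6.502 scaled TPM, by 1.01 on the log2 scale (SE 0.21, limma adjusted p = 0.000209). Its isotype libraries were uneven: F2 lay at 15.3 and F3 at 59.3, and F3 was the library that overlapped the aCD3 range of 53.4 to 71.7. Uqcrc1, a core protein, rose by 0.71 and Uqcrfs1, the Rieske iron-sulfur protein, by 0.59. Uqcr11, a small subunit, had 7.74, 13.7 and 16.4 scaled TPM (low, median and high) and then 21.2, 24.0 and 27.6, with no overlap and a rise of 0.88. Uqcrb did not pass, at 44.4 ± 4.19 and 47.9 ± 3.26 scaled TPM.

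In complex IV, cytochrome c oxidase, 9 of 14 tested members rose and 2 fell. Cox5b, of the matrix side, had 79.2, 85.9 and 111 scaled TPM (low, median and high) in SPF isotype and 173, 189 and 203 in SPF aCD3, with no overlap and a rise of 1.08 on the log2 scale (SE 0.15, limma adjusted p = 3.85e-06). Cox5a, also on the matrix side, rose by 1.05, Cox7a2 by 0.91 and Cox4i1 by 0.46, and Ndufa4, counted above under complex I, rose by 1.00. Cox7a2l, which is not a catalytic subunit but links complex III to complex IV in supercomplexes, fell (NM_001159529, mm10 chr17:83501917-83514333). It lay between 66.3 and 90.7 scaled TPM in SPF isotype and between 51.9 and 65.3 in SPF aCD3, with no overlap (log2 fold change -0.36, SE 0.08, limma adjusted p = 0.000332). Cox7c fell by 0.36 (limma adjusted p = 0.0184), with overlapping groups of 53.3 ± 8.46 and 41.5 ± 7.98 scaled TPM, and its call was lost without SPF isotype F1 or SPF aCD3 M3 (adjusted p up to 0.061).

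In complex V, 14 of 17 members rose and 1 fell, with the highest median of the 5 complexes, 0.80. Atp5b, the catalytic beta subunit (NM_016774, mm10 chr10:128083307-128090388), had 204, 230.0 and 271 scaled TPM (low, median and high) in SPF isotype and 377, 413 and 466.0 in SPF aCD3, with no overlap (log2 fold change 0.85, SE 0.15, limma adjusted p = 2.86e-05). Atp5a1, the alpha subunit, rose by 0.89. Atp5k, subunit e of the membrane part, rose the most, from 93.6, 110 and 144 scaled TPM (low, median and high) to 197, 226 and 273, with no overlap and a log2 fold change of 1.06. The membrane part contains a ring of subunit c, and the 3 genes Atp5g1, Atp5g2 and Atp5g3 encode the same mature protein. Of these, Atp5g3 was at 130 ± 37.8 and 224 ± 22.2 scaled TPM and rose by 0.83. Atp5g1 was at 17.7 ± 8.16 and 30.5 ± 5.61 and rose by 0.85, with overlapping groups. Atp5g2 was at 2.61 ± 0.836 and 2.01 ± 0.655 and did not pass (limma adjusted p = 0.252).

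Atp5md fell further than any other member. Its product, a small membrane protein also known as Usmg5 or DAPIT, is known to help ATP synthase form dimers. It had 37.8, 54.3 and 59.4 scaled TPM (low, median and high) in SPF isotype and 13.6, 14.5 and 16.8 in SPF aCD3. The ranges were far apart, and the log2 change came to -1.72 (SE 0.24, limma adjusted p = 4.24e-06), or -2.11 on the deposited scale. Leaving out any of the 12 SPF libraries kept it between -1.82 and -1.69. Across the 28 libraries its log2 values ran against those of the other subunits, with a Pearson r of -0.964 with their mean. The row (NM_023211, mm10 chr19:47083471-47090647) shares 9 bases with Taf5 on the opposite strand and overlaps no other row.

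Atp5mpl, another small ATP synthase membrane protein, rose by 0.74 and Atp5k by 1.06, in the direction opposite to Atp5md. For the members with a mean of at least 5 scaled TPM, 77 in number, the median Pearson r with the mean of the others over the 28 libraries was 0.878, and 35 lay above 0.9. The 5 below 0 were Atp5md, Ndufb4 (-0.569), Ndufs4 (-0.567), Cox7c (-0.45) and Cox7a2l (-0.382). These correlations describe libraries that share the same treatment groups, and carry no test.

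**Figure D2:**
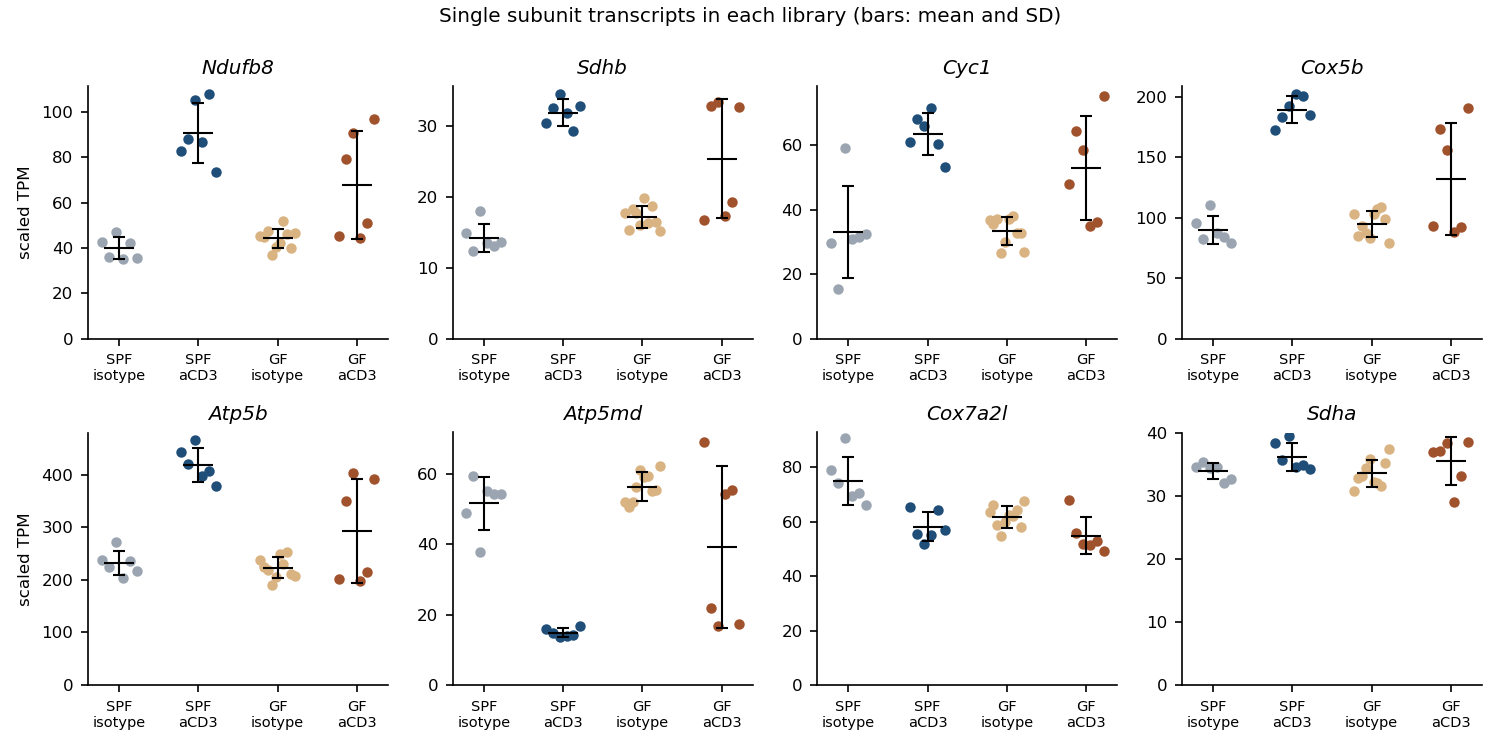
Scaled TPM of 8 subunit genes in each of the 28 libraries (points), with the group mean and SD, on linear axes from 0. Ndufb8, Sdhb, Cyc1, Cox5b and Atp5b were higher after aCD3 in SPF, Atp5md and Cox7a2l were lower, and Sdha was level on this scale; the 6 GF aCD3 libraries ran from 16.8 to 69.0 for Atp5md.

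The isoforms that other tissues use were scarce in these cells. Of 8 such genes, Ndufa4l2, Cox4i2, Cox6a2, Cox7b2 and Cox8c did not pass the filter, which accounts for the 5 untested members. The highest library reached 1.16 scaled TPM for Cox4i2 and 0.763 for Ndufa4l2, and Cox8c had 1 read in 1 of the 28 libraries. Cox6b2, Cox7a1 and Cox8b passed the filter through a few reads, 16 at most in a library of the SPF groups, and did not pass the test. Their log2 fold changes in SPF were 0.96, 0.55 and 0.59 with standard errors of 0.51, 0.40 and 0.39. Cox6b2 passed without SPF aCD3 M1 or M2 (adjusted p down to 0.0395).

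Other genes of mitochondrial respiration, from lists chosen by function, were set beside the subunits in the same SPF comparison. Among carriers and exchangers, which move electrons, phosphate and adenine nucleotides, 10 of 10 tested rose, with a median of 0.72. The largest were the ADP/ATP exchangers Slc25a4 (1.43, SE 0.24) and Slc25a5 (1.22, SE 0.21). Ndufab1 and Atpif1 were in this list, at 1.05 and 0.78. Of 16 TCA cycle genes, 11 rose and 2 fell, with a median of 0.39. Fumarase, Fh1, and malate dehydrogenase, Mdh2, both rose by 1.00, while Suclg2, of the GDP-forming succinyl-CoA ligase, fell by 0.73 and Pdha1, of pyruvate dehydrogenase, by 0.29.

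Fewer of the genes that build and control the complexes were called higher. Of 46 tested assembly factors, 13 rose and 8 fell, with a median of 0.10 and a value above 0 in 33, called or not, against 73 of 82 subunits; these shares, 28.3% and 17.4%, lie near or under the 30.2% and 29.8% of all genes. Sco1 and Pet100, which serve complex IV, rose by 1.07 and 0.97, and Ttc19, which serves complex III, and Tmem186, of complex I, fell by 0.76 and 0.60. Of 20 regulators of mitochondrial gene expression, 4 rose and 7 fell, with a median of -0.04. Slirp rose by 0.59 and Tfam, which packs and transcribes mitochondrial DNA, by 0.55. Ppargc1b, a coactivator of mitochondrial genes, fell by 1.20 and Polg2, of the mitochondrial DNA polymerase, by 1.18. In GF, described next, 3 of the 16 TCA genes rose, Mdh2 and Cs the most (0.42 each), and Tfb2m, a mitochondrial transcription factor, fell by 0.41 among the regulators. Without GF aCD3 M1, M2 or M5 no gene of these lists was called, with 7 of the 16 TCA genes at an unadjusted limma p under 0.05 in each. Without F1, M3 or M4, which left 28.3%, 27.3% and 26.5% of all genes called, 9, 7 and 10 TCA genes passed. Leaving out GF isotype F1 left only Mdh2 called, leaving out F5 only Tfb2m, and leaving out any other GF isotype library left none. Of the carriers and the assembly factors 0 passed in the fit of all libraries, against 9.65% of all genes, with 5 of 10 and 10 of 46 at an unadjusted limma p under 0.05, against 33.1% of all genes. Leaving out GF aCD3 F1, M3 or M4 changed this as well. Then 5, 5 and 3 of the 10 carriers were higher. In the same fits 3, 5 and 2 of the 46 assembly factors were higher and 2, 3 and 1 lower. The differences between these lists were not tested.

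**Figure D3:**
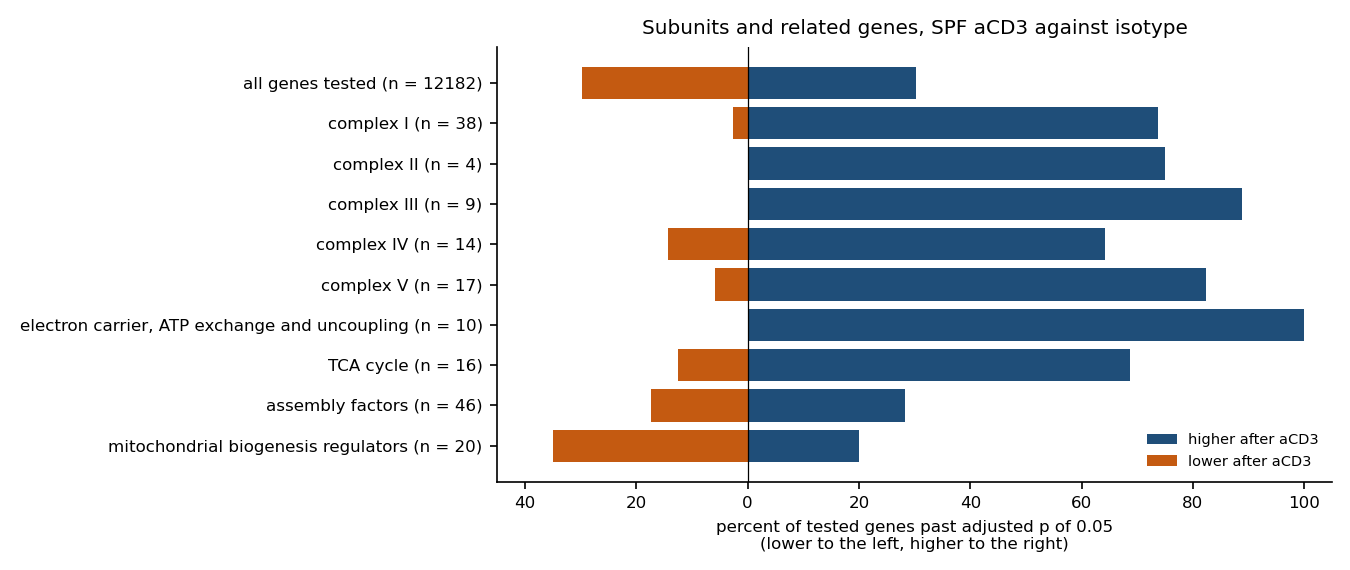
Percent of tested genes that were higher (bars to the right) or lower (bars to the left) at a limma adjusted p of 0.05 in SPF aCD3 against SPF isotype, for all 12182 genes, the 5 complexes and 4 related lists. The complexes reach 64.3% to 88.9% higher against 30.2% of all genes, while assembly factors reach 28.3% and biogenesis regulators 20.0%.

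Other measures moved with the SPF difference. Mki67, a proliferation gene, lay at 35.7 to 73.6 scaled TPM in SPF isotype and 341 to 436 in SPF aCD3, and the histone share rose as given above. The 8 genes that define CD4 T cells, all tested, summed to 1308 to 1533 and 1807 to 2113 scaled TPM, and 7 of them rose. The 9 B and plasma cell genes summed to 113 to 262 and 4.12 to 12.1, the 10 stromal and muscle genes to 14.2 to 41.2 and 4.55 to 6.61, the 10 myeloid genes to 55.9 to 100 and 156 to 215, and the 19 epithelial genes to 9.21 to 48.4 and 12.4 to 65.3, all as the lowest and highest library. Single genes carried several of these sums. The plasma cell gene Jchain went from 163 ± 58.8 to 1.04 ± 0.734 while Cd79b, a B cell gene, was at 5.96 and 5.95, and Cd68, a lysosomal gene of macrophages, went from 6.02 ± 4.48 to 99.99 ± 28.6 while Lyz2 and Xcr1 did not pass. Among the epithelial genes, the antimicrobial lectins Reg3b and Reg3g rose by 2.84 and 2.76 and Krt18 by 0.89, while Cdh1 fell by 1.04. Fabp1, of enterocytes, fell by 0.67 but lay near the floor, at 0 to 1.73 scaled TPM in SPF isotype and 0 in the 6 SPF aCD3 libraries. The 2 CD8 genes summed to 5.17 to 15.7 and 13.6 to 31.1, and the 6 erythroid genes to 2.67 to 9.93 and 0.972 to 1.67. Of those tested, 2 of 3 B and plasma cell genes and 4 of 5 stromal genes fell, 2 of 4 myeloid genes and 1 of 2 CD8 genes rose, and of 14 epithelial genes 3 rose and 2 fell. The part of each in the subunit changes was not tested.

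The second question was the same contrast in GF mice. Of the 82 members, 13 were higher and 1 was lower after aCD3 (limma adjusted p between 0.0399 and 0.0491), against 5.62% higher and 4.02% lower of all genes, 9.65% in either direction. At an unadjusted p under 0.05 there were 46 (56.1%, against 33.1% of all genes), and the median log2 fold change was 0.29. With only the 2 GF groups fitted, 0 members and 0 genes in all were called by limma (25 members unadjusted). By complex, 5 of 38 rose in complex I, 2 of 4 in complex II, 2 of 9 in complex III, 2 of 14 in complex IV and 2 of 17 in complex V. Uqcr11 rose by 0.66, Atp5g3 by 0.63, Cyc1 by 0.60, Ndufs8, an iron-sulfur core subunit, by 0.59, Cox5a and Sdhc by 0.47, and Atp5md fell by 0.71 (limma adjusted p = 0.0475). The groups overlapped in all 82 members, where 0.0493% and 0.0821% of all genes were apart upward and downward.

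These calls moved with single libraries. Without GF aCD3 F1, M3 or M4, the members called numbered 39, 48 and 44 of 81 or 82, where 28.3%, 27.3% and 26.5% of all genes were called. Without M1, M2 or M5 they numbered 0 each time (22 to 24 at an unadjusted p under 0.05 in limma), and so did the calls over all genes. The isotype side mattered as well: the count was 0 without GF isotype F2, M1, M2, M3, M4 or M5 (41 to 47 unadjusted), again with 0 calls over all genes, and 8 without F3, 4 without F4 and 7 without F5, where 4.38%, 3.59% and 4.79% of all genes were called. The column names place the GF libraries in 2 runs of sample numbers, 25 to 33 and 48 to 54. Within them 0 and 0 members were called by limma, with 15 and 3 of 79 at an unadjusted p under 0.05 (17.8% and 3.34% of all genes) and medians of 0.33 and 0.23, and Atp5md had log2 fold changes of -1.06 and -0.45.

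The single GF aCD3 libraries differed widely. Taking for each library the median log2 difference of the 77 better expressed members from the SPF isotype mean, SPF isotype lay between -0.14 and 0.21, SPF aCD3 between 0.56 and 0.74 and GF isotype between -0.12 and 0.14. The GF aCD3 libraries lay at 0.04 (F1), 0.61 (M1), 0.64 (M2), -0.10 (M3), -0.01 (M4) and 0.60 (M5). Sdhb read 16.7, 32.9, 33.4, 17.3, 19.3 and 32.8 scaled TPM in F1, M1, M2, M3, M4 and M5, against 15.2 to 19.9 in GF isotype. Atp5md read 69.0, 21.97, 16.8, 54.4, 55.3 and 17.3, against 50.7 to 62.4. So M1, M2 and M5 lay in the SPF aCD3 range or next to it for both genes, and F1, M3 and M4 in or next to the GF isotype range. Mki67 lay at 40.9, 414, 503, 129, 58.3 and 375 in the same order, against 28.7 to 103 in GF isotype, and histone share and Lag3 are given above. The part of these in the subunit values was not tested. The B and plasma cell genes summed to 9.75 to 104.9 in GF isotype and 7.73 to 80.0 in GF aCD3, and the CD4 genes to 1301 to 1461 and 1346 to 1937. The myeloid genes summed to 65.0 to 106 and 81.1 to 178, Cd68 going from 9.06 ± 4.34 to 33.1 ± 27.6 (limma adjusted p = 0.116), the epithelial genes to 7.62 to 275 and 10.3 to 51.6, and the CD8 genes to 1.08 to 53.1 and 3.05 to 15.5. The stromal and muscle genes summed to 7.15 to 14.8 and 4.65 to 15.7, and the erythroid genes to 0.874 to 2.21 and 1.29 to 2.13.

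**Figure D4:**
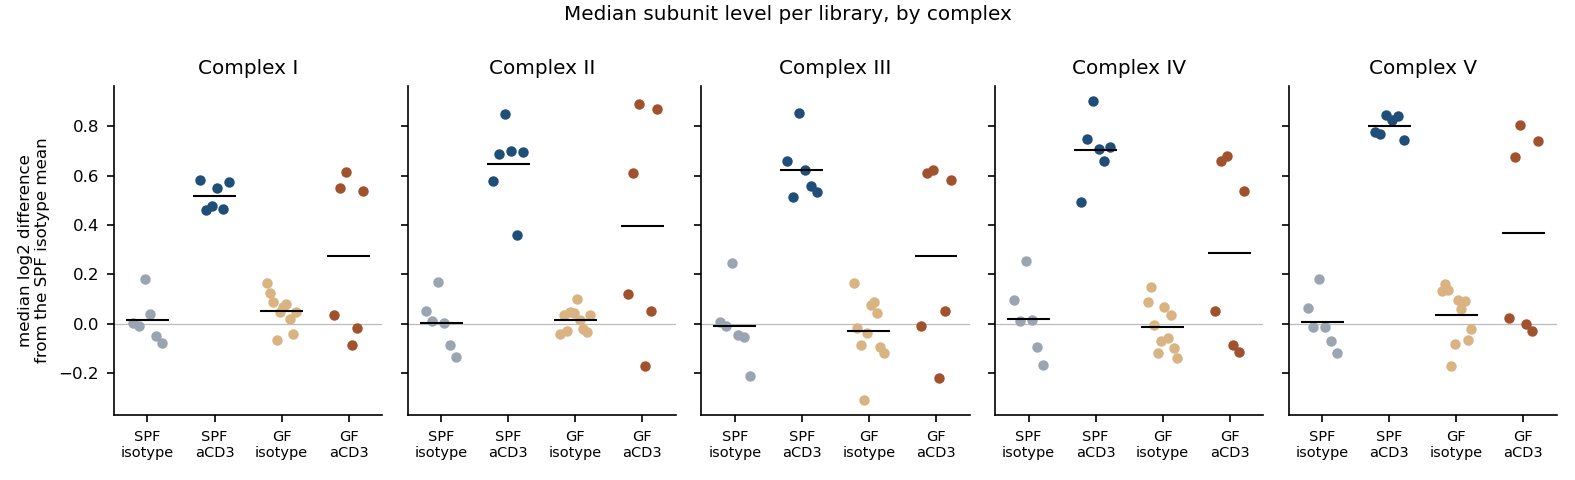
Median log2 difference of each complex's subunits from the SPF isotype mean, in scaled TPM, for each library (points) by group, with the group mean as a line. Over the 5 complexes the SPF aCD3 libraries lie at 0.36 or above and the GF isotype libraries between -0.31 and 0.17, and the 6 GF aCD3 libraries fall at both levels.

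Member by member, the effects in GF followed those in SPF at a smaller size. The sign was the same in 74 of 82 members and the GF value was closer to 0 in 75, with a Pearson r of 0.814 and a Spearman rho of 0.772 across members, which are not independent. The members called in both comparisons numbered 14, which is 14 of the 14 called in GF and 14 of the 66 called in SPF. Much of this was shared by all genes, of which 82.1% had the same sign and 82.7% were closer to 0 in GF, with a Pearson r of 0.758 and a Spearman rho of 0.78, and of which 1116 of the 1175 called in GF were called in SPF. The GF values are means over the 6 unequal libraries. With each of these left out in turn and the SPF values kept, the sign was the same in 73 to 77 members (81 or 82 tested) and in 79% to 83.7% of all genes. Pearson r ranged from 0.74 to 0.883 across members and from 0.666 to 0.79 across all genes. No member was called in GF without M1, M2 or M5, and without F1, M3 and M4 the members called in both numbered 39 of 39, 47 of 48 and 44 of 44.

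**Figure D5:**
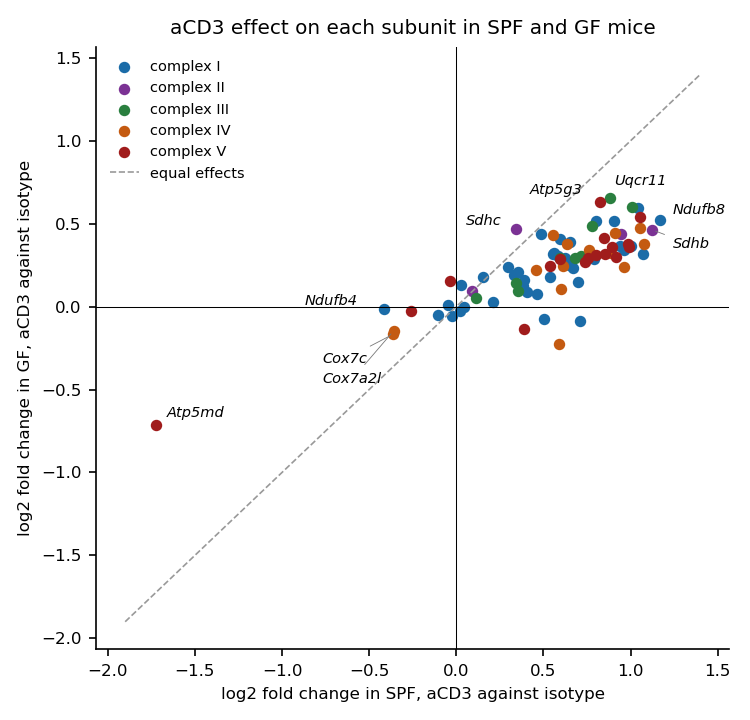
Log2 fold change after aCD3 in GF (vertical axis) against that in SPF (horizontal axis) for the 82 tested subunits, coloured by complex, with the line of equal effects. Most points lie between the horizontal axis and the line, and Atp5md is low on both, at -1.72 and -0.71.

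The difference between the effects, tested in the same fit as an interaction, was past the threshold in 10 members, 1 higher and 9 lower in GF, against 5.3% and 6.03% of all genes (11.3% in all). The median was -0.32. Among the called members the lowest were Ndufc1 (-0.76, SE 0.22, limma adjusted p = 0.0329), Cox5b (-0.70), Sdhb (-0.66) and Ndufa8 (-0.62), and the 1 higher was Atp5md (1.01, limma adjusted p = 0.0498). On the deposited scale 0 were called (21 unadjusted in limma), against 3.48% of all genes. The count is not stable to single libraries. Without GF aCD3 M1, M2 or M5 it was 22, 26 and 26, where 20.2%, 24.0% and 24.7% of all genes were called, and without GF aCD3 F1, M3 or M4, or SPF isotype F2 or M3, it was 0 (22 to 29 unadjusted in limma), where 1.92% to 7.6% of all genes were called. It was 16 without SPF isotype F3, 6 without F1 and 1 without M1 or M2, where 14.5%, 8.83%, 6.68% and 6.97% of all genes were called. It was 4, 4, 1, 1, 2 and 5 without SPF aCD3 F1, F2, F3, M1, M2 and M3 (6.43% to 8.37% of all genes), and 4, 4, 4, 5, 2, 5 and 3 without GF isotype F1, F2, F3, F5, M1, M2 and M3 (7.44% to 9.26%). In the list of 16 TCA genes 1 was higher and 2 lower. Carriers had 1 of 10 lower, assembly factors 3 of 46 lower and regulators 2 of 20 higher. Among marker genes, 3 of 5 stromal and 1 of 3 B and plasma cell genes were higher. Lower were 1 of 8 CD4 genes, 2 of 14 epithelial genes and 1 of 4 myeloid genes. All 8 CD4 genes had a value below 0, with a median of -0.24. The part of these in the subunit values was not tested.

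Without aCD3, few subunit transcripts differed detectably between GF and SPF mice, with a median log2 fold change of 0.02. Of 82, Ndufa9 was higher in GF isotype (log2 fold change 0.30, SE 0.08, limma adjusted p = 0.0443) and Cox7a2l was lower (-0.27, SE 0.07, limma adjusted p = 0.0433), 1.22% in each direction against 0.517% and 1.16% of all genes (1.67% in all). The groups were apart in 0 of 82 members, against 0.32% of all genes upward and 0.616% downward, and 9 of the 82 members had an unadjusted limma p under 0.05, against 13.1% of all genes. Ndufa9, an accessory subunit of complex I, lay between 7.05 and 9.68 scaled TPM in GF and 6.34 and 7.58 in SPF, with overlap. Cox7a2l lay between 54.7 and 67.6 in GF and 66.3 and 90.7 in SPF, with overlap. On the deposited scale 16 members were higher and 0 lower, against 6.42% and 0.755% of all genes, whose median was 0.15. The count was 2 without GF isotype M2, 1 without SPF isotype M1 or M3 or GF isotype F4, M3, M4 or M5, and 0 without any other isotype library (5 to 9 unadjusted in limma), and 0.922% to 1.8% of all genes were called in these fits. SPF libraries come from other sample numbers than GF libraries, so a batch that followed these numbers cannot be told apart from colonisation in the comparisons between them.

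Under aCD3, 29 of 82 members were lower in GF than in SPF and 1, Atp5md, was higher, against 16.7% and 16.1% of all genes (32.7% in all), with a median of -0.31. With only these 2 groups fitted, 2 of 80 members were called, both lower, against 7.48% of all genes, and Atp5md was not called (log2 fold change 1.28, limma adjusted p = 0.0536). The direction rests on the scale: on the deposited values 19 members were higher and 0 lower, against 48.9% and 4.46% of all genes, with a member median of 0.09 and an all-gene median of 0.34 (23 of 82 members at an unadjusted limma p under 0.05 in either direction). After removal of Rn45s, the ribosomal RNA precursor, and histone genes 12 were higher and 2 lower, against 40.9% and 4.9% of all genes, with medians of -0.01 and 0.28. On each of these 3 scales the members' median lay below that of all genes. Complex V had 8 lower of 17, complex I 8 of 38, complex IV 6 of 14, complex III 5 of 9 and complex II 2 of 4. Among the called members the lowest were Uqcr10, a small complex III subunit, at -0.63, Cox5b at -0.62, and Atp5mpl and Atp5k at -0.61 each. On the deposited scale these read -0.23, -0.21, -0.21 and -0.21 and were not called. Atp5md was 2.64 times higher in the ratio of means, with a median of 38.2 scaled TPM in GF aCD3 and 14.5 in SPF aCD3 (log2 fold change 1.14, SE 0.25, limma adjusted p = 0.00246), and was also called higher on the deposited scale. Every GF aCD3 library lay above every SPF aCD3 library for Atp5md, with 16.84 against 16.78 scaled TPM at the closest. As given above, GF aCD3 M1, M2 and M5 lay close to the SPF aCD3 range, and F1, M3 and M4 in or next to the GF isotype range. No GF aCD3 library lay near the median of 38.2, and the ratio of means rests largely on F1, M3 and M4. It was the 1 member of 82 whose groups were apart, against 3.26% of all genes upward and 2.62% downward. The count was 7 without GF aCD3 F1 and 17 without M3 or without M4, where 13.7%, 21.2% and 20.5% of all genes were called, and 40, 43 and 42 without M1, M2 and M5, where 38.3%, 40.3% and 40.4% were. Marker genes differed too: 5 of 8 CD4, 1 of 2 CD8, 3 of 14 epithelial and 1 of 4 myeloid genes were lower and 0 higher. The 3 B and plasma cell, 5 stromal and 1 erythroid genes gave 0 calls. The CD4 genes had a median of -0.28. The part of these in the subunit values was not tested.

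The genes whose pattern was most like the mean of the 77 better expressed subunits over the 28 libraries were Selenoh (Pearson r 0.985), Ldha and Tubb5 (0.979 each), and Psma1 and Ran (0.978 each). Their SPF log2 fold changes after aCD3 were 1.87, 1.66, 1.89, 0.99 and 1.47. Ldha encodes the lactate dehydrogenase subunit that serves glycolysis, Tubb5 a tubulin, Psma1 a proteasome subunit and Ran a GTPase of nuclear transport. The likeness is over libraries that share treatment groups and is given as a description.

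Some members share their genomic span with another gene, and whether reads were counted by strand is not given in the sources used here. Of the 82, 14 overlapped another row of the table, of which 12 rose and 1 fell in SPF aCD3, and 68 overlapped none, of which 50 rose and 3 fell. Ndufs5 overlapped BC002163 over 99.5% of its span, Ndufs1 overlapped Ino80dos over 44.25%, and the rows of Ndufs7 and Atp5d lay within that of Bc1, each on the opposite strand. The GENCODE gene Gm15976, also on the opposite strand, covered 53.3% of Atp5o. On the same strand, Ndufb4c lay within Mroh5, and GENCODE genes covered 49.8% of Ndufb8 (Gm20538), 100% of Cox4i1 (Gm20388), 100% of Ndufa13 (Yjefn3), 62.3% of Ndufb9 (Gm49356) and 55.4% of Ndufb2 (Gm42420), so reads of these members cannot be assigned with certainty. Restricted to the 48 members that overlapped neither another row nor a GENCODE gene, 33 (68.8%) rose and 2 fell.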

How the data were processed

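RNA of 28 libraries was compared in 4 groups taken from the labels. The deposited values are TPM, reads per length as a share of the library, made per the file headers with HOMER's analyzeRepeats.pl on mm10 with transcripts condensed to genes. In 99.24% of genes the length column equals end minus start, so the deposited TPM are per base of genomic span, introns included, and levels of genes with long introns read low. The aligner's settings and strand use are not given in the sources used here, and 26 further TPM columns, not of these samples, were not used. The labels name both a total RNA kit and polyA RNA as the molecule.

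TPM multiplied by length was a whole number of reads, within 0.02 reads plus rounding, in 100% of the low values checked, which gave the depth. Each library was divided by its median ratio to the geometric mean over 11055 genes (factors 0.716 to 1.234) to give scaled TPM. Genes reaching 1 TPM in 6 or more libraries entered the test on log2(scaled TPM + 1), which understates changes of low genes, with limma 3.58.1 (R 4.3.3): group means plus sex, fitted to the 28 libraries together, with trended empirical Bayes moderation, and Benjamini-Hochberg adjustment over the 12182 genes within each of 5 comparisons at 0.05. Python 3.11.15, NumPy 2.4.6, pandas 2.3.3 and matplotlib 3.10.9 were used. Tested on simulated data for SPF aCD3 against SPF isotype over 11981 genes, the fit recovered 46.5% of genes changed by a log2 of 0.5 and 100% of those changed by 1, and called 0.059% of unchanged ones. The simulation gave every gene the same dispersion and changed 199 genes with more reads, about as many up as down. It held no histone shift and no uneven group, so it does not test the scaling or the GF calls.

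Alternatives were the deposited scale, quantile normalization, removal of Rn45s and histone genes, other pseudocounts and filters, no sex term, only the groups compared, array weights, voom on recovered reads, a replicate block, a run term for the 2 stretches of GF sample numbers and each library left out. Members and gene lists were chosen with earlier results of these data known. The text names a fixed set of subunits of each complex, the 4 highest and 4 lowest called members of each comparison, the largest called member per complex for both aCD3 contrasts, and the 2 highest and 2 lowest called genes of each other list; further members named within their complex were chosen after their values were seen.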

Additional observations from a re-analysis of the deposited data

Results flagged for a closer look

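The aCD3 effect differed between GF and SPF mice by the limma interaction test in 10 of 82 members (12.2%), near the 11.3% of all genes called in the same comparison. It was smaller in GF for Ndufa8 (-0.62), Ndufc1 (-0.76), Sdhb (-0.66), Cox5a (-0.58), Cox5b (-0.70), Atp5a1 (-0.53), Atp5d (-0.61), Atp5j (-0.49) and Atp5j2 (-0.61), and the fall of Atp5md was smaller by 1.01, all as log2 differences of GF minus SPF. These members belong to complexes I, II, IV and V. The GF values are means over 6 unequal libraries: Sdhb read 32.9, 33.4 and 32.8 scaled TPM in GF aCD3 M1, M2 and M5, within the 29.3 to 34.5 of SPF aCD3, and 16.7, 17.3 and 19.3 in F1, M3 and M4. Without F1, M3 or M4, 0 members were called in limma (22, 27 and 25 unadjusted).

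In 9 of 152 sets of group values, 1 library lay apart from the rest by Dixon's criterion, where chance gives about 8. For scaled TPM these were Atp5a1 in SPF aCD3 F3 (331 against 308 to 316), Atp5g2, Atp5k and Uqcr10 in SPF isotype F2 (4.19 against 1.77 to 2.61, 144 against 93.6 to 112, and 107 against 71.1 to 82.6), and Cox7a2l in GF aCD3 F1 (68.0 against 49.3 to 55.9). The others were low genes: Cox7a1 in SPF aCD3 M2 (7.13 against 1.11 to 2.03) and in GF isotype F1 (5.07 against 0 to 2.14), and Cox8b in SPF isotype M1 (2.61 against 0 to 0.807) and in GF isotype M2 (3.38 against 0 to 1.44).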

How the results depend on the processing

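The SPF count of 66 called members stayed between 48 and 66 under the alternatives and between 60 and 66 with 1 library left out, where 38.6% to 66% and 56.6% to 59.8% of all genes were called; the percentages that follow are likewise the all-gene shares in the same fits. The others were less stable, and the cause was not tested. For GF aCD3 against isotype (14), 9 were called on the deposited scale (7.08%), 0 with no filter (47 unadjusted, 0%), 0 with only both groups fitted (25 unadjusted, 0%), 29 with array weights (15.8%) and 23 with a run term (19.4%), and 0 to 48 with 1 library left out (0% to 28.3%); voom called 10 (7.73%). For the difference of the effects (10), 0 were called on the deposited scale (21 unadjusted, 3.48%), 1 after quantile normalization (6.49%), 4 without Rn45s and histone genes (5.21%), 1 with no filter (4.32%), and 0 to 26 with 1 library left out (1.92% to 24.7%). For the isotype groups (2), 16 were called on the deposited scale (7.17%), 0 after quantile normalization (10 unadjusted, 1.46%), 20 without Rn45s and histone genes (19.6%), 5 with array weights (4.74%), and 0 to 2 with 1 library left out (0.922% to 1.8%). For the aCD3 groups (30), 19 were called on the deposited scale (53.3%), 17 after quantile normalization (27.5%), 14 without Rn45s and histone genes (45.8%), 2 with only both groups fitted (7.48%), 13 with array weights (15%), and 7 to 43 with 1 library left out (13.7% to 40.4%).

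Same-named libraries correlated between -0.213 and 0.209 in their deviations from group means, so the names were not taken as pairs. With the replicate block, 65 members were called in SPF (59.1%), 0 in GF (43 unadjusted, 0%), 4 for the difference (6.64%), 0 for the isotype groups (8 unadjusted, 1.8%) and 16 for the aCD3 groups (21.2%).

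Some directions turned. In SPF, Sdha read -0.31 on the deposited scale. Between the isotype groups it read 0.18 without Rn45s and histone genes. Between the aCD3 groups, the deposited scale gave 0.0895 for the members' median, 0.38 for Sdha, 0.0506 for Uqcrfs1, 0.0933 for Cox4i1 and 0.34 for Cox7a2l, and leaving out Rn45s and histone genes gave 0.28 for Sdha and 0.24 for Cox7a2l. Over the named members, 2773 alternative values stayed on their side of the threshold, 422 lost a call and 54 gained one. Depth limits genes of a few reads, such as the tissue isoforms.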
